A study of Mus musculus with 22 samples.

Results

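Transcripts of 9 fatty acid oxidation enzymes were examined in mouse mammary tissue that held freshly engrafted cancer cells. The enzymes were Cpt1a, Cpt1b, Cpt2, Acadm, Acadl, Acadvl, Hadha, Hadhb and Ehhadh, chosen by gene symbol, and they are 9 of the 52526 distinct symbols in the deposited data. All mice were 7 to 8 week old C57BL/6J females, and all received 100000 EO771 cells, a mammary cancer line of the same strain made to express firefly luciferase, in the left 4th mammary fat pad. For 2 weeks before engraftment each home cage held a running wheel or, for controls, only the hub of a wheel. They also received liposomes intravenously 24 hours before engraftment and again at engraftment, holding either PBS or clodronate, a drug that kills phagocytes that take the liposomes up. The 4 groups were control mice with PBS liposomes (n = 6), wheel mice with PBS liposomes (n = 6), control mice with clodronate liposomes (n = 5) and wheel mice with clodronate liposomes (n = 5), and the whole left 4th mammary tissue was collected 24 hours after engraftment.

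Fatty acids are burned in mitochondria by a short relay of enzymes. Long-chain fatty acids enter as carnitine esters, made by carnitine palmitoyltransferase 1 on the outer membrane and turned back into acyl-CoA by carnitine palmitoyltransferase 2 on the inner membrane. Acyl-CoA dehydrogenases of different chain-length preference then open each round of β-oxidation, and the mitochondrial trifunctional protein finishes the rounds on long chains. Peroxisomes run a parallel pathway for other fatty acids, with enzymes of their own such as Ehhadh. In the mammary fat pad, adipocytes make up most of the tissue volume, and they both store and oxidise fatty acids.

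Values are CPM, read counts scaled to the size of the library, from QuantSeq, a method that reads only the 3′ end of each transcript, so that CPM can be compared between genes without dividing by length. Every value under 1 CPM had been raised to 1, which is called the floor here. Libraries held 13256467 to 20484578 reads (median 16293026), so the floor hides any gene with fewer than about 13 to 20 reads, depending on the mouse. The tissue carried the defining markers of a fat pad with epithelium. Adipoq, the adipocyte hormone adiponectin, ranged from 865 to 2656 CPM over the 22 mice, and Epcam, of epithelial cells, from 34.4 to 111 CPM. The milk protein genes Csn2 and Wap were at the floor in every mouse. Other tissues entered some pieces to unequal degrees. The summed CPM of 12 skeletal muscle markers ran from 36.3 to 28455 over the mice, and in 5 mice (control PBS 2, wheel PBS 3 and wheel clodronate 3, 4 and 5) the summed CPM of 12 lymphocyte markers was 302 to 880 CPM, against at most 21.3 CPM in each of the other 17. In such bulk tissue, fewer cells of a type and less RNA per cell cannot be told apart.

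The promoter windows of the members that moved most, or that lie beside each other, are shown first. RefSeq windows (GRCm38.p6) that run from 250 bases before to 50 bases after the transcript start were at hand for 8 of the 9 members, all but Cpt1b. They were searched on both strands for AGGTCA (reverse complement TGACCT), the core motif of nuclear receptors such as the PPARs, which are known to control many genes of this pathway. The motif stood in 3 of the 8 windows, those of Acadm, Acadvl and Cpt1a, and in 16.3% of all 32851 windows of the same length. A direct repeat, AGGTCA followed by any 1 base and AGGTCA again, stood in 0 of the 8 and in 0.0396% of all windows. The GC box GGGCGG stood in 6 of the 8 and in 35.7% of all windows, and the TATA box TATAAA in 0 of the 8 and in 13.6% of all windows. A match describes the letters only. The windows of Acadm (chr3:153944594-153944893, minus strand), Acadvl (chr11:70015379-70015678, minus strand) and Cpt2 (chr4:107923540-107923839, minus strand) belong to the genes with the largest differences between liposome groups below. Capitals mark AGGTCA or its reverse complement, which the Cpt2 window lacks.
Acadm: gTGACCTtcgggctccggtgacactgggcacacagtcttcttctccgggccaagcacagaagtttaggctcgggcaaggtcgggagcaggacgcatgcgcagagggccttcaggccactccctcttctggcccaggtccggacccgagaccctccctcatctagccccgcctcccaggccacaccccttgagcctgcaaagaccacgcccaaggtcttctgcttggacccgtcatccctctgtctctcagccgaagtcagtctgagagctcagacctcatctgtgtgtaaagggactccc
Acadvl: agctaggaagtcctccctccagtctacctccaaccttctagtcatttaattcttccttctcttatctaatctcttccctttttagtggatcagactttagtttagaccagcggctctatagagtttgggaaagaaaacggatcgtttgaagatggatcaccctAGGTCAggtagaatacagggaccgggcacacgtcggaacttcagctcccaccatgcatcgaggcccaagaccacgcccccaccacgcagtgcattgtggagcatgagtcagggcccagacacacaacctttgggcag
Cpt2: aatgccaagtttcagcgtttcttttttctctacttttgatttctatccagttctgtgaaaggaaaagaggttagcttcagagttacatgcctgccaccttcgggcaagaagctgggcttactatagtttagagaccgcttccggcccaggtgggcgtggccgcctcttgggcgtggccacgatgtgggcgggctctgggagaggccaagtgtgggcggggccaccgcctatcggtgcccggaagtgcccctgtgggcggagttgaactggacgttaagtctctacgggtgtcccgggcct

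The windows of Hadha (chr5:30154931-30155230, minus strand) and Hadhb (chr5:30155003-30155302, plus strand) are shown because these genes lie head to head and share 228 bases of promoter window. The GENCODE annotation leaves 85 bases between the genes. The windows are set on RefSeq transcript starts, which differ from the GENCODE ones and for Hadha lie inside the GENCODE gene. The shared bases are in capitals and are read from opposite strands.
Hadha: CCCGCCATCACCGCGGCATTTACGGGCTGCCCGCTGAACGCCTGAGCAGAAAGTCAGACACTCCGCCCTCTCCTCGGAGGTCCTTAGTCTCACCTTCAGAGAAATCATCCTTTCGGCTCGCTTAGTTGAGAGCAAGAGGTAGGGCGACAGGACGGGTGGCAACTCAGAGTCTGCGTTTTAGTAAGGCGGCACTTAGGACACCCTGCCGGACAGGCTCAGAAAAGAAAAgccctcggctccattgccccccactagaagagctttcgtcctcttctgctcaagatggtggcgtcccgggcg
Hadhb: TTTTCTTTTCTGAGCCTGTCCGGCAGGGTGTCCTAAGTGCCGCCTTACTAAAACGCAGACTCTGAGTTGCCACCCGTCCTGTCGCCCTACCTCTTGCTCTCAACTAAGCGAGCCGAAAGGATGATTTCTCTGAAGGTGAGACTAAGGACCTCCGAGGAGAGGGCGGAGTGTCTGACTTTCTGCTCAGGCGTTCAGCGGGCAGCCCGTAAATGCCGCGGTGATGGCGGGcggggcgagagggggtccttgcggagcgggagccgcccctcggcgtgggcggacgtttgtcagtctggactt

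Ordered by the median CPM over the 22 mice, the members stood as Acadl (178 CPM), Hadha (147 CPM), Acadm (138 CPM), Acadvl (77.5 CPM), Cpt2 (44.1 CPM), Hadhb (36.6 CPM), Cpt1a (28.2 CPM), Ehhadh (2.43 CPM) and Cpt1b, which was at the floor. Within single mice, some neighbours in this order kept their places and others did not. Acadl exceeded Hadha in 20 of 22 mice, whereas Hadha exceeded Acadm in only 13. Acadm exceeded Acadvl, Acadvl exceeded Cpt2, and Cpt1a exceeded Ehhadh in 22 of 22 mice. Cpt2 exceeded Hadhb in 17 mice, and Hadhb exceeded Cpt1a in 14. The places of Hadha and Acadm, and of Hadhb and Cpt1a, therefore lay within the spread between mice. The summed CPM of the 9 members was 599 to 745 CPM in control PBS mice, 622 to 789 CPM in wheel PBS mice, 496 to 780 CPM in control clodronate mice and 549 to 629 CPM in wheel clodronate mice, so the groups overlapped.

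**Figure D1:**
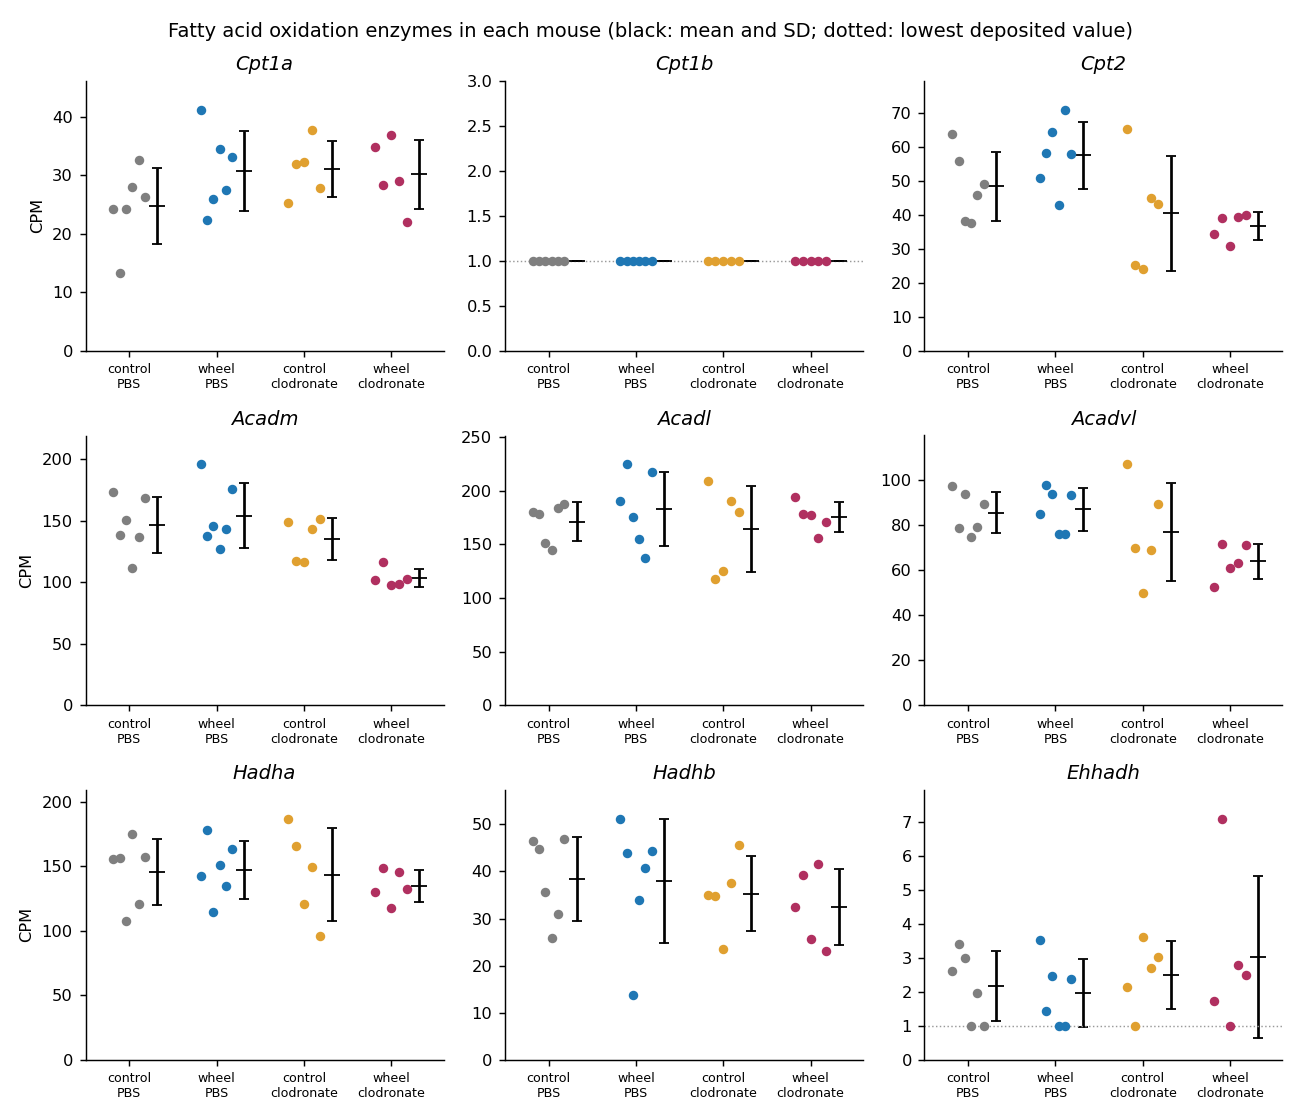
CPM of each enzyme in each mouse (points), by group on the horizontal axis, with the group mean and SD in black and the floor of 1 CPM dotted where it is reached. The 5 wheel clodronate mice had 97.8 to 116 CPM of Acadm, below all 5 control clodronate mice, and Cpt1b lies on the floor in all 22 mice. Per read in genes, those Acadm groups overlap.

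Each gene was compared between groups with limma on log2(CPM + 1), fitted to the 15138 genes that exceeded the floor in 5 or more mice, with Benjamini-Hochberg adjustment over all of them. Of the 9 members, 8 passed that filter, and Cpt1b did not. The questions were what running changed under each kind of liposome, what clodronate changed over both activities, and whether running acted differently under clodronate (the interaction). No member passed an adjusted p of 0.05 in any of these comparisons (0 of 8 in each). The background was as low. Of all genes tested, 0% were called for running with PBS liposomes, 0.00661% for running with clodronate liposomes, 0.205% for clodronate and 0% for the interaction. Without adjustment, p was under 0.05 for 4.91%, 10.4%, 10.4% and 7.58% of all genes in these comparisons, and for 0, 1, 3 and 1 of the 8 members. These members all lay lower, as did 3.4%, 8.3% and 1.23% of all genes at that p for running with clodronate liposomes, clodronate and the interaction. Fold changes on the log2(CPM + 1) scale understate the change of genes near the floor, which among those tested concerns Ehhadh.

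**Figure D2:**
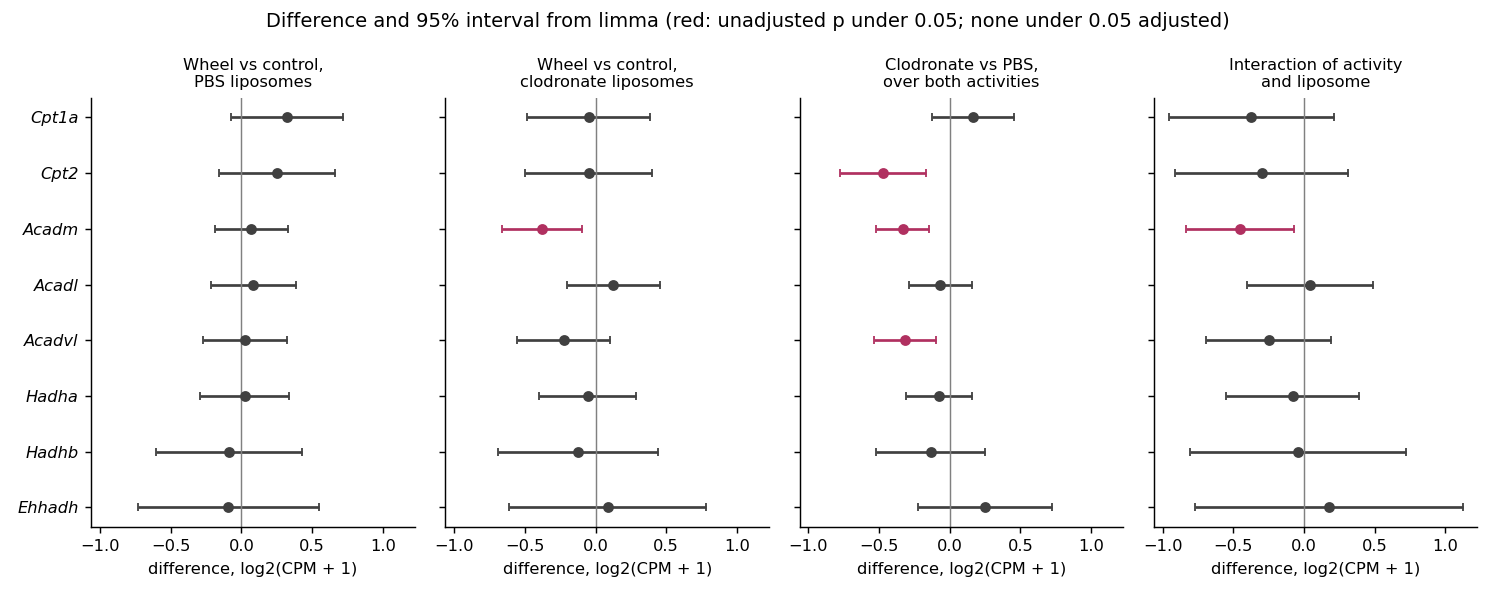
Difference in log2(CPM + 1) for the 8 tested enzymes in the 4 comparisons, with 95% intervals from limma, red where the unadjusted p is under 0.05. Acadm, Cpt2 and Acadvl lie below 0 for clodronate against PBS, by 0.31 to 0.47 in size, and the adjusted p passes 0.05 for no enzyme.

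The gatekeeping step showed no difference past the test. Cpt1a (chr19:3322334-3385733, plus strand) encodes the liver-type carnitine palmitoyltransferase 1, the regulated entry step that malonyl-CoA inhibits. In control PBS mice its level ran from 13.2 to 32.6 CPM with a median of 25.3 CPM. In wheel PBS mice it ran from 22.4 to 41.2 CPM with a median of 30.3 CPM. The ranges overlapped, although 3 of the 6 wheel mice lay above every control mouse, which was also so for Acadl. The difference was 0.32 on the log2 scale (SE 0.19, 95% interval -0.07 to 0.72, limma adjusted p = 0.987), which is 1.25-fold. Without control PBS mouse 2, which had the 13.2 CPM, the difference was 0.16, and without the 5 mice rich in lymphocyte markers, of which it is a member, 0.20. With clodronate liposomes, control mice had 25.3, 27.9, 32.0, 32.4 and 37.8 CPM and wheel mice 22.0, 28.3, 29.0, 34.8 and 36.9 CPM. Those groups covered nearly the same range (difference -0.05, 95% interval -0.48 to 0.38, limma adjusted p = 0.969).

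Cpt2 (chr4:107903981-107923610, minus strand) encodes the inner-membrane partner of Cpt1. Its level was 37.6 to 63.9 CPM in control PBS mice (median 47.5) and 42.9 to 71.0 CPM in wheel PBS mice (median 58.2). In control clodronate mice it was 24.0, 25.4, 43.2, 44.9 and 65.4 CPM, and in wheel clodronate mice 30.8, 34.6, 39.1, 39.5 and 40.1 CPM. Of the 10 clodronate mice, 4 lay below every PBS mouse, but control clodronate mouse 1, at 65.4 CPM, lay above 11 of the 12 PBS mice. Over both activities, Cpt2 differed by -0.47 on the log2 scale between clodronate and PBS (SE 0.15, 95% interval -0.78 to -0.17, 0.721-fold), with an unadjusted limma p of 0.00397 and an adjusted p of 0.194. Without control clodronate mouse 1 the difference was -0.57, with a limma adjusted p of 0.0378. The control clodronate mice at 25.4 and 24.0 CPM, mice 2 and 3, also had the lowest adipocyte marker sums of all mice (8943 and 10936 CPM), and mouse 2 had the highest muscle marker sum (28455 CPM). The part of tissue makeup in this difference was not tested for Cpt2. Without the 2 mice richest in muscle markers, the difference was -0.41 with a limma adjusted p of 0.334.

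Among the acyl-CoA dehydrogenase members, only Acadm (chr3:153922357-153944632, minus strand) had wheel and control clodronate groups that did not overlap in CPM. Whether its difference was unlike those of the other dehydrogenases was not tested. Acadm encodes the medium-chain enzyme. Its level was 112 to 174 CPM in control PBS mice (median 144), 127 to 196 CPM in wheel PBS mice (median 144), and 117, 117, 143, 149 and 151 CPM in control clodronate mice. In wheel clodronate mice it was 97.8, 99.1, 102, 102 and 116 CPM. All 5 of these mice lay below all 5 control clodronate mice, although the highest of them (116.4 CPM) and the lowest control (116.6 CPM) all but touched. The share of reads in genes was 57.2% to 58.5% in wheel clodronate mice and 58.7% to 63.0% in control clodronate mice. Per read in genes, wheel clodronate mouse 2 lay above control clodronate mice 2 and 3, so the separation depends on the scaling. Of all genes tested, 0.601% had wheel and control groups apart in this direction with clodronate liposomes. The difference was -0.38 on the log2 scale (SE 0.14, 95% interval -0.66 to -0.10, 0.769-fold), with an unadjusted limma p of 0.0104 and an adjusted p of 0.288. With PBS liposomes the difference between wheel and control was 0.07 (95% interval -0.19 to 0.33, limma adjusted p = 0.991). The interaction, which compares these differences, was -0.45 (SE 0.18, 95% interval -0.83 to -0.07, limma adjusted p = 0.625). Over both activities, Acadm differed by -0.33 between clodronate and PBS (SE 0.092, 95% interval -0.52 to -0.14, 0.793-fold, limma adjusted p = 0.131), and 4 of the 10 clodronate mice lay below every PBS mouse. Between 1474 and 3106 reads stood behind each of these values.

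Tissue makeup differed between the clodronate groups that Acadm separated in CPM. The summed CPM of the 10 adipocyte markers was 13054 to 19563 CPM in wheel clodronate mice (median 14890) and 8943 to 25051 CPM in control clodronate mice (median 20575), and all 10 markers were above the floor in some mouse. Wheel clodronate mice 3, 4 and 5, rich in lymphocyte markers, had 97.8, 99.1 and 102 CPM of Acadm, and mice 1 and 2, poor in them, had 102 and 116 CPM. Without the 5 mice rich in lymphocyte markers the Acadm difference was -0.31 (limma adjusted p = 0.952). That fit kept only mice 1 and 2 of the wheel clodronate group, so fewer mice and lymphocyte content cannot be told apart in it. Without the 2 mice richest in muscle markers the Acadm difference was -0.47 (limma adjusted p = 0.136). The part of adipocyte content in the Acadm difference was not tested.

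Acadl (chr1:66830839-66863277, minus strand), the long-chain enzyme and the most abundant member, showed neither difference. It ran from 144 to 187 CPM in control PBS mice (median 179) and from 137 to 224 CPM in wheel PBS mice (median 183). Control clodronate mice had 118, 125, 180, 190 and 209 CPM, and wheel clodronate mice 156, 171, 177, 178 and 194 CPM. The wheel clodronate values lay inside the control clodronate range. The difference between wheel and control was 0.08 with PBS liposomes (95% interval -0.22 to 0.39) and 0.13 with clodronate liposomes (95% interval -0.20 to 0.46), and clodronate against PBS gave -0.07 (95% interval -0.29 to 0.16), with limma adjusted p of 0.991, 0.858 and 0.859. The lowest control clodronate values, 118 and 125 CPM, came from mice 2 and 3, which also had the lowest Cpt2.

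Acadvl (chr11:70010183-70015411, minus strand) encodes the very-long-chain enzyme of the inner membrane. Its level was 74.8 to 97.3 CPM in control PBS mice (median 84.3) and 75.9 to 98.0 CPM in wheel PBS mice (median 89.1). Control clodronate mice had 49.7, 69.0, 69.7, 89.5 and 107 CPM, and wheel clodronate mice 52.6, 61.1, 63.4, 71.1 and 71.5 CPM. Of the 10 clodronate mice, 8 lay below every PBS mouse, the exceptions being control clodronate mice 1 and 5. How many of all genes show such splits was not determined, here or for Cpt1a, Cpt2 and Acadm. Clodronate against PBS gave -0.31 (SE 0.11, 95% interval -0.54 to -0.09, 0.804-fold), with an unadjusted limma p of 0.00728 and an adjusted p of 0.250. Running made a difference of 0.02 with PBS liposomes (limma adjusted p = 0.998) and of -0.23 with clodronate liposomes (limma adjusted p = 0.687). The latter was -0.10 without control clodronate mouse 1 and -0.37 without control clodronate mouse 3. The gene overlaps Dvl2 on the opposite strand by 2119 bases, and 256 of the last 400 bases of its transcript lie in Dvl2 transcripts too. Dvl2 itself was at 6.24 to 20.4 CPM, and whether the counting used strand is not given in the sources used here, so the Acadvl counts are uncertain to that degree.

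Hadha and Hadhb encode the α and β subunits of the trifunctional protein. Hadha (chr5:30118304-30155162, minus strand) carries the hydratase and hydroxyacyl-CoA dehydrogenase activities, and Hadhb (chr5:30155248-30184593, plus strand) the thiolase. Hadha ran from 107 to 175 CPM in control PBS mice (median 156) and from 114 to 178 CPM in wheel PBS mice (median 147). Control clodronate mice had 95.7, 121, 149, 166 and 187 CPM of Hadha, and wheel clodronate mice 118, 130, 132, 146 and 148 CPM. Hadhb ran from 25.8 to 46.9 CPM in control PBS mice (median 40.2) and from 13.8 to 51.2 CPM in wheel PBS mice (median 42.3). Control clodronate mice had 23.5, 34.8, 35.0, 37.6 and 45.6 CPM of Hadhb, and wheel clodronate mice 23.1, 25.6, 32.4, 39.3 and 41.5 CPM. Groups overlapped in every comparison of either gene, and the differences lay between -0.14 and 0.02 on the log2 scale, with limma adjusted p from 0.832 to 0.998. The 13.8 CPM of Hadhb belonged to wheel PBS mouse 3, which is rich in lymphocyte markers. Without the 5 such mice, the Hadhb difference between wheel and control with PBS liposomes changed from -0.08 to 0.22, neither past the test.

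The subunits are assembled together, yet their transcripts were counted at unequal levels. The ratio of Hadha to Hadhb CPM had a median of 3.94 and ran from 2.10 in control clodronate mouse 5 to 8.26 in wheel PBS mouse 3, with Hadha higher in 22 of 22 mice. The relation of their levels between mice of a group did not pass the test (Pearson's r = 0.31, permutation p = 0.159, Benjamini-Hochberg adjusted p = 0.405, n = 22; Spearman's rho = 0.26, permutation p = 0.275), and r was 0.53 without the 2 mice farthest from the median of Hadha. A stretch of 237 aligned bases within the last 400 of Hadhb transcripts matches 2 processed pseudogenes, at 99.6% (Gm13910) and 97.5% (Gm9108) identity. No such copy was found for Hadha. Reads that map to several places were 16.6% to 19.9% of all reads and are not in the gene values, so the Hadhb level is uncertain and its part in the ratio was not tested.

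**Figure D3:**
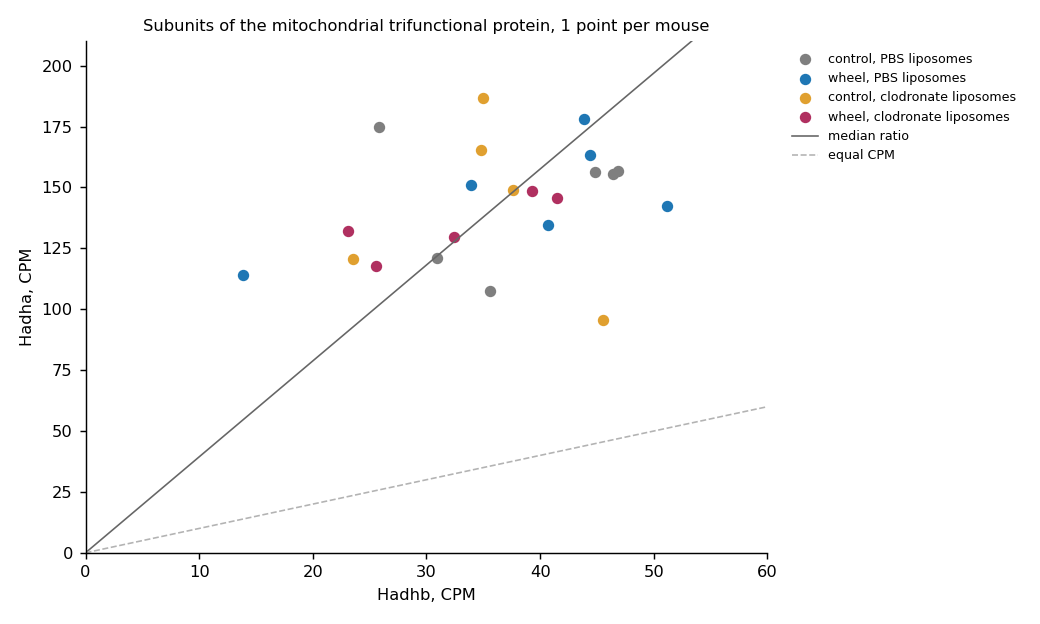
Hadha CPM against Hadhb CPM, 1 point per mouse coloured by group, with lines at the median ratio and at equal CPM. Every point lies above the line of equal CPM, and the ratio runs from 2.10 to 8.26.

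Ehhadh (chr16:21761287-21787807, minus strand), the bifunctional enzyme of peroxisomal β-oxidation and a known PPARα target in liver, was near the limit of the data. It was at the floor in 6 of 22 mice, 2 in each PBS group and 1 in each clodronate group, and its highest value was 7.10 CPM, in a wheel clodronate mouse. Group medians lay between 1.92 CPM (wheel PBS) and 2.72 CPM (control clodronate). All groups overlapped, and limma adjusted p lay between 0.739 and 0.997. Each value above the floor rested on 24 to 111 reads, and the intervals of Ehhadh were wide (for clodronate against PBS, 0.855-fold to 1.65-fold).

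Cpt1b (chr15:89416405-89425863, minus strand) encodes the muscle-type carnitine palmitoyltransferase 1. It was at the floor in 22 of 22 mice, with at most 13 to 20 reads in each, also where skeletal muscle genes were abundant. In these mice Acta1, skeletal muscle actin, ran from 5.46 to 6082 CPM and Ckm, muscle creatine kinase, from 1.38 to 3264 CPM. The annotation places Cpt1b wholly inside Gm44502, a readthrough gene of Chkb and Cpt1b on the same strand. All 400 last bases of Cpt1b transcripts are also in a transcript of Gm44502. Gm44502 is not among the symbols of the deposited data, so whether it took part in the counting is not known. Among protein-coding genes of the files whose annotated 3′ end is shared with another protein-coding gene, 57 of 82 (69.5%) were at the floor in every mouse, against 6333 of 21497 (29.5%) of those whose end is not shared. Whether reads of Cpt1b were lost in counting was not tested. The value of Cpt1b is uncertain, and its level in muscle-rich pieces cannot be read from the floor. Chkb, the upstream neighbour, was at 8.16 to 32.5 CPM.

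The members were then compared with each other over the mice, after each group's mean was removed. Of 28 pairs of the 8 varying members, 20 had a positive Pearson's r, the median r was 0.21 and the range -0.44 to 0.68. No pair passed a Benjamini-Hochberg adjusted p of 0.05 (lowest 0.105, permutation of mice within groups). The pairs at the top joined Cpt2 and the dehydrogenases. Cpt2 and Acadvl had r = 0.68 (rho = 0.50, permutation p = 0.0153), but r = 0.37 without the 2 mice farthest from the median of Cpt2, so that relation rests on those mice. Acadm and Acadvl had r = 0.56 (rho = 0.58, permutation p = 0.00585), and r = 0.63 without the 2 farthest mice. Cpt1a ran the other way, with r of -0.44 against Cpt2 (rho = -0.53, permutation p = 0.0287) and of -0.35 against Acadvl (rho = -0.53, permutation p = 0.0673). After scaling each library to its upper quartile, 8 of the 28 pairs passed, all positive and all among Cpt2, Acadm, Acadl, Acadvl, Hadhb and Ehhadh, with r from 0.56 to 0.74. The correlation of the members with each other thus depended on how libraries were scaled.

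**Figure D4:**
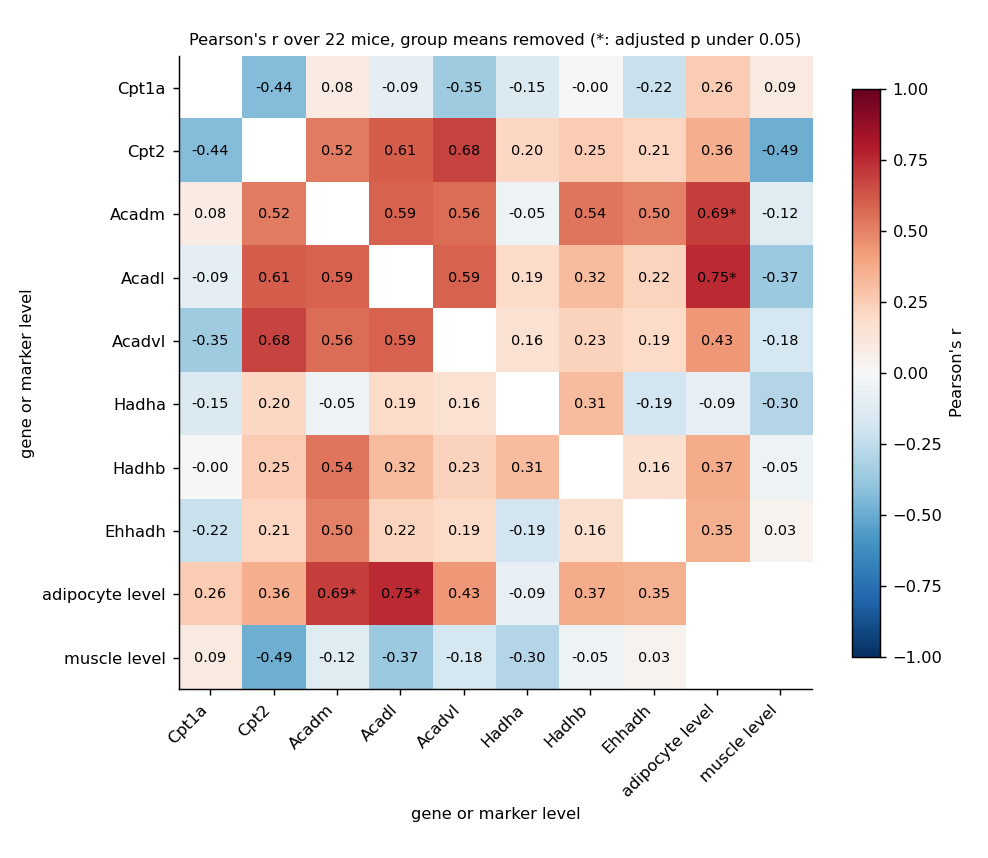
Pearson's r over 22 mice between the 8 varying enzymes and with the adipocyte and muscle marker levels, group means removed, with an asterisk where the adjusted p is under 0.05. The 2 relations past the test are Acadl and Acadm with the adipocyte level, at 0.75 and 0.69, and Cpt1a is at or below 0.08 with every other enzyme.

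Because the pieces held unequal amounts of fat and muscle, each member was also set against the mean log2(CPM + 1) of the adipocyte markers and of the skeletal muscle markers (16 relations). Acadl rose with the adipocyte level (r = 0.75, permutation p = 0.00304, rho = 0.77, permutation p = 0.00194, adjusted p = 0.0243 for r), and r was 0.67 without the 2 mice farthest from the median adipocyte level. Acadm did so too (r = 0.69, permutation p = 0.00208, rho = 0.73, permutation p = 0.00141, adjusted p = 0.0243 for r), with r = 0.69 without the 2 farthest mice. The other 6 members had r from -0.09 (Hadha) to 0.43 (Acadvl) with the adipocyte level, none past the test. No member passed with the muscle level, where r ran from -0.49 (Cpt2) to 0.09 (Cpt1a). The calls for Acadl and Acadm were close to the threshold. Both were lost when any of the 5 control clodronate mice or wheel PBS mouse 6 was left out (adjusted p from 0.0541 to 0.0836) and when libraries were scaled to the reads assigned to genes (adjusted p = 0.0508), while r stayed between 0.64 and 0.85 in all these fits.

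**Figure D5:**
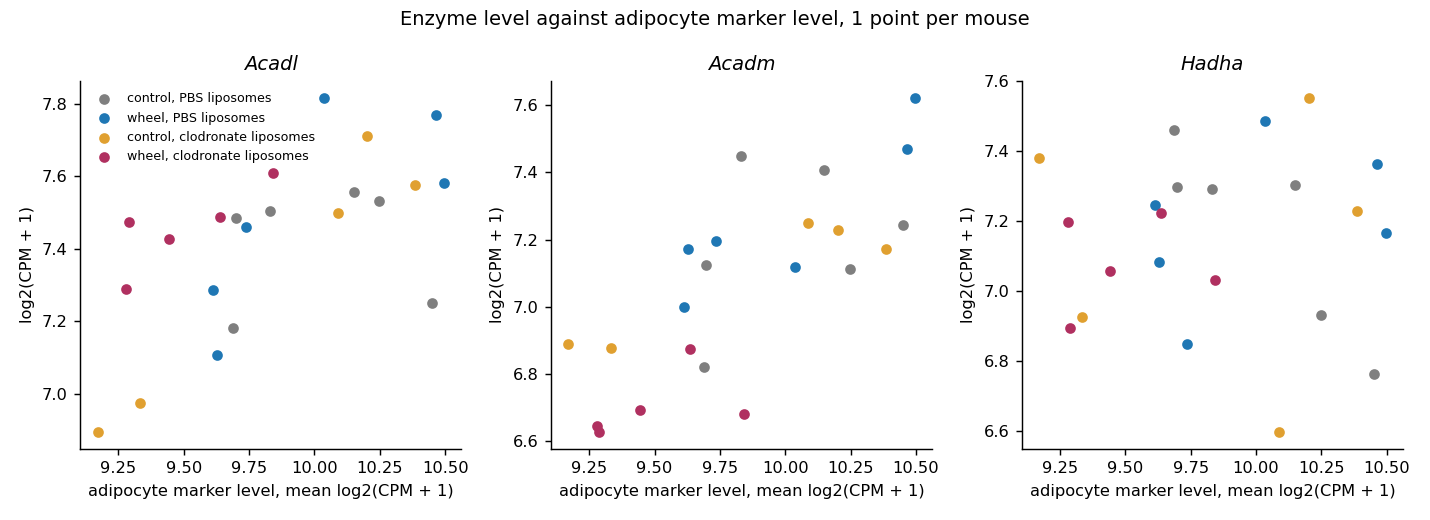
Log2(CPM + 1) of Acadl, Acadm and Hadha against the adipocyte marker level (mean log2(CPM + 1) of 10 genes), 1 point per mouse coloured by group. Acadl and Acadm rise along the axis (r = 0.75 and 0.69 with group means removed), and Hadha does not (r = -0.09).

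The genes whose pattern over the 22 mice was most like each member's were sought among 9347 genes above the floor in every mouse, with group means removed. The correlations describe likeness only, and all points share their libraries. How high the top r would run through selection from so many genes alone was not determined. Acadl went most closely with Tspo, a protein of the outer mitochondrial membrane (r = 0.90), Prkar2b, a regulatory subunit of protein kinase A (0.89), and Hsd17b11, found on lipid droplets (0.86). Acadm went with Slc25a23, a mitochondrial carrier, Serinc1 and Lpin1, a phosphatidate phosphatase of fat storage (0.78 each). Cpt2 went with Nudt7, a peroxisomal CoA-cleaving enzyme (0.87), Cox6a1, a subunit of cytochrome c oxidase (0.86), and the mitochondrial carrier Slc25a10 (0.85). Acadvl went with Ndufa2, of respiratory complex I (0.85), Pex16 (0.81) and Emc6 (0.80). For the trifunctional subunits the lists differed. Hadha went with Atp5k, of the ATP synthase (0.76), Stub1 (0.75) and Dpm2 (0.74), and Hadhb with Borcs7 (0.89) and the iron-sulfur cluster genes Isca2 (0.86) and Bola3 (0.83). Cpt1a went with Nbr1 (0.79), Nnat (0.73) and Tnfsf12 (0.72), and Ehhadh with Ankef1 (0.75), Cul4a (0.74) and Pex13 (0.72).

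The rest of the pathway showed small differences, none past the test. Of 20 other mitochondrial fatty acid oxidation genes, 0 were called in each comparison. In clodronate against PBS, 16 of the 20 had lower and 4 higher estimates, with a median of -0.14 on the log2 scale, beside -0.04 over all genes and -0.11 over the 8 members tested. The largest was Acads, the short-chain dehydrogenase, with 65.4 to 80.1 CPM in control PBS mice, 63.4 to 108 CPM in wheel PBS mice, 24.3 to 112 CPM in control clodronate mice and 38.2 to 59.5 CPM in wheel clodronate mice (difference -0.61, SE 0.17, limma adjusted p = 0.152). Echs1, the short-chain enoyl-CoA hydratase, differed by -0.38 (SE 0.12, limma adjusted p = 0.188). For running with clodronate liposomes, the largest difference among the 20 was that of Acaa2, a mitochondrial thiolase. It was 87.3 to 105 CPM in control and 55.0 to 85.1 CPM in wheel clodronate mice (difference -0.52, SE 0.15, limma adjusted p = 0.232). These groups do not overlap in CPM, as was so in this direction for 0.601% of all genes tested. Whether they overlap per read in genes was not determined. The Acaa2 interaction was -0.57 (limma adjusted p = 0.613).

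Of 18 peroxisomal fatty acid oxidation genes, 17 were tested and 0 were called in each comparison. All 17 had lower estimates with clodronate than with PBS liposomes (median -0.19), and 57.4% of all genes did. Abcd2, a peroxisomal importer of very-long-chain fatty acids, had 154 to 256 CPM in control PBS mice, 115 to 282 CPM in wheel PBS mice, 88.7 to 257 CPM in control clodronate mice and 75.5 to 111 CPM in wheel clodronate mice. Its groups overlapped (difference -0.64, SE 0.18, limma adjusted p = 0.131). Acox3, a peroxisomal acyl-CoA oxidase, was higher in each of the 5 wheel clodronate mice (17.3 to 29.3 CPM) than in the control clodronate mice (10.1 to 14.7 CPM), with a difference of 0.77 (SE 0.25, limma adjusted p = 0.263), a separation that 0.667% of all genes showed in this direction. Adipocyte markers had lower estimates in the same clodronate comparison, 10 of 10 with a median of -0.31 and 0 called. Macrophage markers were lower in 10 of 11 (median -0.23), with 0 called. Their summed CPM had a median of 358 CPM in control PBS mice and 351 CPM in wheel PBS mice. The median was 290 CPM in control clodronate mice but 363 CPM in wheel clodronate mice, so the clodronate groups did not share a lower median. Skeletal muscle markers were higher in 12 of 12 (median 1.46) and lymphocyte markers in 12 of 12 (median 0.87), with 0 called in either list. The lymphocyte difference was not shared by both clodronate groups. Among clodronate mice, only wheel mice 3, 4 and 5 were rich in lymphocyte markers, and no control mouse was. Control PBS mouse 2 and wheel PBS mouse 3 were rich in them too. The part of adipocyte, macrophage, muscle and lymphocyte content in the pathway medians was not tested.

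Of 20 regulators and PPAR target genes, 0 were called in each comparison, with medians of 0.10 and -0.20 for running with PBS and with clodronate liposomes, -0.10 for clodronate and -0.34 for the interaction, beside -0.08, 0.00, -0.04 and 0.09 over all genes. The largest difference was that of Acaca, the acetyl-CoA carboxylase whose product malonyl-CoA inhibits Cpt1. It had 233 to 587 and 205 to 501 CPM in control and wheel PBS mice, and 77.2 to 514 and 57.7 to 292 CPM in control and wheel clodronate mice (difference -1.26, SE 0.30, limma adjusted p = 0.0836). Acacb, the carboxylase at the mitochondrial surface, had 22.5 to 62.6 CPM in control PBS mice and 53.2 to 85.6 CPM in wheel PBS mice (difference 0.73, SE 0.28, limma adjusted p = 0.987). Pdk4, a kinase that spares pyruvate when fat is burned, ran from 2.06 to 6.88 CPM in control PBS mice and from 4.99 to 6.78 CPM in wheel PBS mice (difference 0.65, SE 0.56, limma adjusted p = 0.987), and Ucp2, an inner-membrane carrier, had an interaction of 0.93 (SE 0.29, limma adjusted p = 0.596).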

How the data were processed

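RNA of whole mammary tissue was measured in 22 mice. Per the labels, the authors made 3′ end libraries (QuantSeq), mapped the reads and normalized them to CPM; the submitters' processing notes name STAR 2.5.3a and GRCm38, and the counting tool and its use of strand are not given in the sources used here. The deposited signal is in CPM with values under 1 raised to 1, so it holds no counts, and 100% of the values above the floor are whole multiples of 1 read (within 0.05 reads). From those steps the depth is 13256467 to 20484578 reads a mouse, with 57.2% to 64.5% in genes. The 4 entries that name no gene (reads that were ambiguous, 0.484% to 0.615%; multimapping, 16.6% to 19.9%; outside features, 11.5% to 17.8%; unmapped, 4.13% to 8.66%) were left out. For 106 symbols listed more than once, the entry with the highest mean was kept.

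Groups and replicate numbers came from the labels. Nothing ties the numbers to shared cages or litters, and the deviations of same-numbered mice from their group means correlated at r over 0.1 in 4 of 11 pairs (r from -0.25 to 0.52), so the numbers were not taken as pairs. Log2(CPM + 1) was fitted with limma 3.58.1 (R 4.3.3; 4 group means, eBayes with a variance trend, Benjamini-Hochberg) on genes above 1 CPM in at least 5 mice. On simulated data with a log2 change of 1.5 put into 200 of 15138 genes, it recovered 99.0%, 98.5% and 100% for running with PBS, running with clodronate and clodronate, with 10, 11 and 11 false calls, and made 0 calls without changes. The simulation gave all genes the same relative spread, held no differences in tissue makeup, and changed only genes averaging over 5 CPM. The largest member difference was -0.47 (Cpt2, clodronate against PBS), and recovery of differences of that size was not tested. Correlations used 100000 permutations of mice within groups (two-sided) in Python 3.11.15 with numpy 2.4.6, pandas 2.3.3 and scipy 1.17.1, over 28 pairs and 16 relations, since Cpt1b did not vary. Gene positions are those of GENCODE M21 (GRCm38), copies of transcript ends (last 400 bases, at least 90% identity over at least 100 bases) were sought with BLAST 2.17.0, and promoters are from RefSeq.

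Named were all 9 members, from each pathway list a choice among the 3 genes with the largest change per comparison, and for each member the 3 genes most like it. The members and lists were chosen with earlier results of these data known. Alternatives were pseudocounts of 0.1 and 5 CPM and none, other filters, other scalings, no variance trend, fits of the compared groups alone, a replicate block, and leaving out each mouse or the mice rich in lymphocyte or muscle markers. P-values measure the spread between mice of a single experiment. Counting error is the only error that depth covers.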

Additional observations from a re-analysis of the deposited data

Results flagged for a closer look

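Within each group, the highest or lowest mouse was set against the others for 12 measures (48 tests in all, of which chance alone would give about 2.4). Acadm in wheel clodronate mouse 2 was 116.4 CPM, above the 97.8 to 102.4 CPM of the other 4 mice of its group. The lymphocyte marker level, the mean log2(CPM + 1) of 12 genes, was 4.40 in control PBS mouse 2 against at most 1.31 in the other 5, and 4.62 in wheel PBS mouse 3 against at most 1.24 in the other 5. The latter mouse also had the lowest Hadhb, 13.8 CPM.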

How the results depend on the processing

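No member was called in any comparison under any alternative but 1: without control clodronate mouse 1, clodronate against PBS called 1 member, Cpt2, so that the count of members called ran from 0 to 1 over the mice left out. The differences of Acadm, Cpt2 and Acadvl between clodronate and PBS, and those of Acadm and Acadvl between wheel and control with clodronate liposomes, kept their sign in all alternatives. Over the 8 tested members and 4 comparisons, 351 of 364 values from other settings and 490 of 528 with a mouse left out kept direction and side of the threshold. Since the main fits called no member, any reversal was bound to be of a difference that was not called. The cause of the reversals was not tested. With upper-quartile scaling the Hadhb difference for running with PBS was 0.012 and the Acadl interaction -0.080, and that scaling moved the median of all genes by 0.10 in the interaction (from 0.091 to -0.0092). With scaling to the reads assigned to genes, running with clodronate gave 0.021 for Cpt1a, 0.025 for Cpt2 and 0.016 for Hadha, and the Hadhb interaction was 0.0014. Without the 5 mice rich in lymphocyte markers (17 left, a choice made after the data were seen), running gave -0.021 for Acadvl and 0.22 for Hadhb with PBS, and 0.025 for Cpt1a and 0.046 for Hadhb with clodronate. Of the wheel clodronate group, only mice 1 and 2 stayed in that fit. Without the 2 mice richest in muscle markers (20 left, chosen likewise), running with clodronate gave -0.40 for Ehhadh, and the interaction was -0.076 for Acadl and -0.31 for Ehhadh.

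With single mice left out, differences near 0 changed sign. For running with PBS, Acadm ran from -0.0035 to 0.12, Acadvl from -0.013 to 0.062, Hadha from -0.058 to 0.095, Hadhb from -0.19 to 0.17 and Ehhadh from -0.23 to 0.018. For running with clodronate, Cpt1a ran from -0.12 to 0.055, Cpt2 from -0.21 to 0.15, Hadha from -0.19 to 0.048 and Ehhadh from -0.21 to 0.30. The interaction ran from -0.068 to 0.14 for Acadl, from -0.22 to 0.023 for Hadha, from -0.30 to 0.067 for Hadhb and from -0.12 to 0.39 for Ehhadh. Cpt2 between clodronate and PBS ran from -0.57 to -0.39. Acadl kept its sign for running but ran from 0.022 to 0.16 with PBS and from 0.017 to 0.22 with clodronate.

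Counts over all genes moved more. For running with clodronate, limma called 1 gene, and 3 without a filter on low values, 0 among genes averaging 5 CPM or more (1063 at an unadjusted p under 0.05), 0 with only the compared groups fitted (1363), 0 with the replicate block (1586), 0 without the lymphocyte-rich mice (853), 6 without the muscle-rich mice, and 0 to 240 with single mice left out, the highest without wheel clodronate mouse 2. For clodronate, 31 genes were called, and 54 among genes averaging 5 CPM or more, 12 with upper-quartile scaling, 20 with no variance trend, 20 with scaling to assigned reads, 11 with the replicate block, 0 without the lymphocyte-rich mice (1845 at an unadjusted p under 0.05), 0 without the muscle-rich mice (1493), and 12 to 146 with single mice left out, the highest without control clodronate mouse 1. The interaction called 2 genes without a filter, against 0. The replicate block, which pairs mice that share only a number, changed no call of a member, and not every mouse was most like the mouse of its own number. Pairs of members past the test numbered 8 with upper-quartile scaling and 0 to 2 with single mice left out. Relations to marker levels past the test numbered 0 with scaling to assigned reads and 0 to 2 with single mice left out. The floor hides genes under about 13 to 20 reads, which limits Ehhadh and Cpt1b.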
